A study of Mus musculus with 2 samples.

Results

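The genes examined were 8 members of the Ets family of transcription factors, Spi1, Spib, Ets1, Ets2, Elf1, Etv6, Gabpa and Elk3, chosen by name from the 21938 protein-coding genes of the annotation. Their chromatin was measured by single-cell ATAC-seq, in which a transposase cuts open DNA and each cut fragment carries the barcode of its cell. The cells were hematopoietic stem cells (HSCs) from C57BL/6 bone marrow. They were sorted as Sca-1+, CD150+ and c-kit+, and as negative for Lin, IL-7, CD34, CD48 and Flt3, where IL-7 is the labels' name for the receptor IL-7Rα of the study's methods. Young HSCs came from mice aged 10 weeks and aged HSCs from mice aged 20 months, and the study's methods give female animals without a count of the animals pooled. Each age was 1 library, so a difference between ages cannot be told apart from a difference between libraries, and no test between ages was made.

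Ets factors share a DNA-binding domain that reads a short purine-rich core, and many of them occupy promoters and enhancers of blood cell genes. Spi1 encodes PU.1, which is needed for myeloid and B cell development and whose dose in HSCs depends largely on an upstream regulatory element (URE) of the gene. Spib encodes the close relative SpiB of B cells and plasmacytoid dendritic cells, Ets1 and Ets2 are the founding members, Elf1 acts in blood and endothelial cells, Etv6 is a repressor needed by adult HSCs, Gabpa is the DNA-binding subunit of GABP at housekeeping promoters, and Elk3 is a ternary complex factor that works with serum response factor.

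Sequences are shown for the Spi1 URE peak and for the 5 peaks of the 8 loci with the highest log2 ratios of aged over young, so that the letters can be set beside the values given further on. Each is the central 200 bases of a peak, 5′ to 3′ on the strand of its gene, from the RefSeq GRCm38 assembly, which is the same build as mm10. Capitals mark matches, on either strand, to 1 of 6 short motifs: GAGGAAGT for PU.1/SpiB, CCGGAAGT for ETS, TGTGGT for RUNX, AGATAA for GATA factors, TGANTCA for AP-1 and TTGCNNAA for CEBP. Of all 167304 combined peaks, 6.76% held the PU.1/SpiB letters in this window, 0.758% ETS, 21.7% RUNX, 8.98% GATA, 9.35% AP-1 and 8.34% CEBP. A match is a description of letters and not a site in use. The Spi1 URE peak (chr2:91082966-91083165, plus strand, in the first intron of the longer Spi1 gene model) held 3 RUNX matches and 1 CEBP match.
Spi1 URE: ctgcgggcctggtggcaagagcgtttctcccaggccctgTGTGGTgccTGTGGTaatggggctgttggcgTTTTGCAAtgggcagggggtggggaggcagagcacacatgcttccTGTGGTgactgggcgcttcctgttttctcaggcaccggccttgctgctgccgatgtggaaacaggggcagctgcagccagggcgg
Both Ets1 peaks (chr9:32595426-32595625 and chr9:32789416-32789615, plus strand, intergenic) held no match.
Ets1 upstream peak: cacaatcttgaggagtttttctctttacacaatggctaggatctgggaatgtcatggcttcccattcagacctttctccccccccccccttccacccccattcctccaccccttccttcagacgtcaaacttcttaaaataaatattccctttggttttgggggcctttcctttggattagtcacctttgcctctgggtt
Ets1 downstream peak: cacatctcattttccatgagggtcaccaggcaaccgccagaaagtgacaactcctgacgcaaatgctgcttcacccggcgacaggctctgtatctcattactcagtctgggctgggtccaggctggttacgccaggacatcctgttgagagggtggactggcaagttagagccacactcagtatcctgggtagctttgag
The Etv6 peak (chr6:134158426-134158625, plus strand, intronic) held 1 CEBP and 1 AP-1 match.
Etv6 intronic peak: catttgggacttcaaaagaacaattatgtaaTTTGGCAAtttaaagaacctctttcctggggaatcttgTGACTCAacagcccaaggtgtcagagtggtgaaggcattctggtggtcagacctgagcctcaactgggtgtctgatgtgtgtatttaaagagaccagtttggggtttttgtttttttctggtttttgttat
The farther Gabpa peak (chr16:84795126-84795325, plus strand, in an intron of the neighbouring gene Jam2) held 1 GATA match.
Gabpa distal peak: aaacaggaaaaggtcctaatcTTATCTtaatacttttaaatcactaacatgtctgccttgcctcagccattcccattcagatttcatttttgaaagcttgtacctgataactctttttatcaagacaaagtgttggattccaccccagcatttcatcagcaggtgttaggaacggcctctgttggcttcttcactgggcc
The nearer Gabpa peak lies over an exon of Jam2, and only its PU.1/SpiB match is given, with 10 bases on either side (chr16:84810475-84810502, plus strand).
Gabpa PU.1 match: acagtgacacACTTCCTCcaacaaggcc

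The young library held 4887 kept cells with a median of 9890 fragments and the aged library 3404 with 11020. Levels are in FPM, fragments at a window divided by the library's fragments in peaks and given per 1000000 of them, from the 34680708 young and 26167963 aged fragments in the combined peaks, and all intervals are 95% intervals that cover counting error only. Fragments shorter than the DNA of a nucleosome were 59.8% of the young and 55.0% of the aged fragments, cells marked as doublets 4.17% and 7.31%, and 26 kept barcodes occurred in both libraries. The enrichment of fragment ends around gene starts over their surroundings had a median per cell of 5.32 in young and 4.92 in aged HSCs. The part of these differences in the results was not tested. The sorted identity was checked on promoters: the 8 HSC markers summed to 190 FPM in both libraries, while the 5 T cell markers summed to 9.69 and 6.69 FPM and the 7 granulocyte and monocyte markers to 19.4 FPM in both. The 6 B cell markers summed to 64.5 and 62.7 FPM, the 5 erythroid markers to 47.9 and 45.6 FPM, and no marker of any list was at 0. The 4 megakaryocyte markers were not low: they summed to 112 and 101 FPM, with a median per gene of 29.9 and 25.5 FPM beside 20.0 and 19.3 FPM for the HSC markers. The HSC markers were not all high: Mecom stood at 0.519 and 0.535 FPM at its annotated 5′ end.

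At Spi1, the URE was level between the ages, whereas the downstream start, used by 2 of the 3 curated RefSeq transcripts, was lower in aged HSCs. The annotated 5′ end of the gene (chr2:91082390-91115756, plus strand) belongs to the longer model and lies 14.3 kb upstream of that start, beside the URE, so the promoter window at this end, used for Spi1 wherever the 8 annotated promoters are compared, holds the main URE peak and measures the URE. A window 13 to 15 kb upstream of the start (chr2:91081678-91083677) held 1338 young and 1007 aged fragments, 38.6 and 38.5 FPM, a log2 ratio of aged over young of -0.00 (-0.12 to 0.12). The main peak in it (chr2:91082861-91083270) stood at 29.0 and 27.8 FPM, a log2 ratio of -0.06 (-0.20 to 0.08), and was cut in 892 young and 643 aged cells.

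The window of 1000 bp on either side of the Spi1 downstream start (chr2:91095678-91097678) held 1159 young and 727 aged fragments, 33.4 (31.5 to 35.4) and 27.8 (25.8 to 29.9) FPM. The intervals of the libraries did not overlap, and the log2 ratio was -0.27 (-0.40 to -0.13), 0.832-fold. This is short of the log2 ratio of 0.32 either way that was set for a call at promoters and gene bodies. Enrichment around gene starts was lower in the aged library, and its part in this ratio was not tested. The log2 ratio of the start minus that of the URE window was -0.26 (-0.44 to -0.08), and against the URE peak alone it was -0.20 (-0.39 to -0.01). The windows of this contrast were chosen after seeing the data. In cells thinned to equal depth the values lay closer, -0.24 (-0.46 to -0.02) at the start and -0.08 (-0.28 to 0.10) at the URE window, with overlapping intervals. Among fragments shorter than nucleosomal DNA the log2 ratio of the start was -0.41 (-0.60 to -0.22), scaled by each library's own total of such fragments in peaks.

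A peak in the Spi1 intron 4.9 kb downstream of the start stood at 12.8 and 12.2 FPM, a log2 ratio of -0.07 (-0.28 to 0.14). In 500-bp bins, the bin just after the start held 20.4 and 16.5 FPM, and the tallest URE bin 28.3 and 27.8 FPM. The bin just before the start held 11.2 and 9.25 FPM. The bin 0.5 to 1 kb after the start was level at 10.1 and 10.0 FPM, and the bin from 1 to 1.5 kb held 4.04 and 4.78 FPM. Around the URE several low bins stood higher in aged HSCs, among them the bin 13 to 12.5 kb upstream of the start with 114 and 130 fragments.

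**Figure D1:**
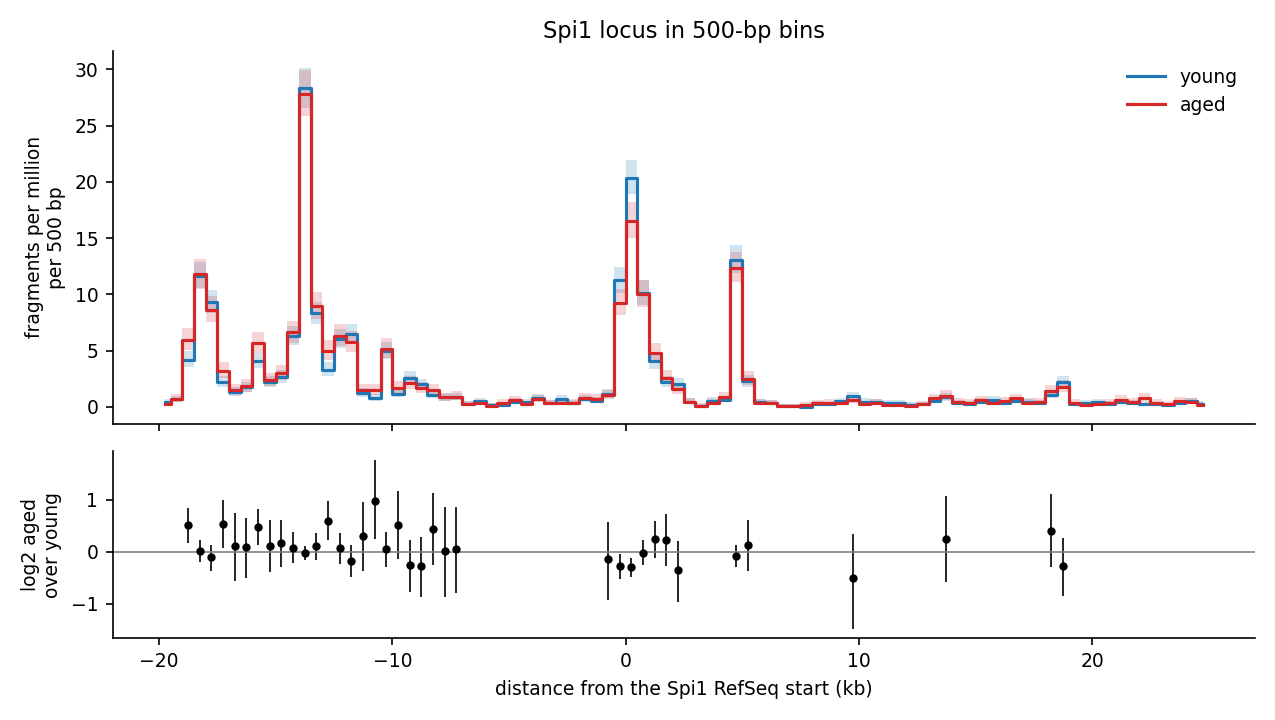
FPM in 500-bp bins over the Spi1 locus against distance from the downstream RefSeq start in kb (top; line, level; shading, 95% counting interval; blue young, red aged) and the log2 ratio of aged over young with its interval for bins of at least 50 fragments (bottom). The tallest URE bin is level at 28.3 and 27.8 FPM, whereas the bin after the start reads 20.4 in young and 16.5 in aged HSCs.

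The share of cells with a fragment was measured as well. Each cell was thinned to 3000 in-peak fragments. Of the 4788 young and 3271 aged cells deep enough for this (99 and 133 were not), 9.36% (8.55 to 10.2) and 8.13% (7.22 to 9.12) had a fragment at the Spi1 start, and 20.5% and 18.7% without thinning. At the URE window the thinned shares were 11.4% (10.5 to 12.3) and 10.7% (9.66 to 11.8). Both pairs of intervals overlap, so at this depth per cell neither difference was resolved by shares alone. For comparison, the promoters of 5 T cell genes, which HSCs should not use, gave thinned shares from 0.0835% (Cd3d) to 1.55% (Lck) in young and from 0.122% (Cd3d and Cd8a) to 1.31% (Lck) in aged HSCs.

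Over all 8 genes the annotated promoters, 1000 bp either side of the gene's 5′ end, differed little. None of the 8 passed a log2 ratio of 0.32 either way with at least 100 fragments and an interval that leaves out a ratio of 1. Of the 15024 promoters tested across the genome, 7.77% were called higher and 2.03% lower in aged HSCs, so 0 of 8 is near the background. All 8 ratios were below 0, with a median of -0.08 against -0.05 over all tested promoters, of which 65.2% were below 0. The sign depended on the window for 2 genes: with 500 bp on either side the log2 ratio was 0.16 (-0.08 to 0.40) for Spi1 and 0.33 (-0.37 to 1.02) for Spib, and with 5 kb it was 0.07 (-0.00 to 0.15) for Spi1.

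The highest promoters belonged to Etv6, Elf1 and Gabpa. Etv6 (chr6:134035700-134270158, plus strand) stood at 67.9 FPM in young and 62.7 in aged HSCs, a log2 ratio of -0.11 (-0.21 to -0.02). Elf1 (chr14:79481194-79582494, plus strand) stood at 62.6 and 53.9 FPM, and its libraries did not overlap, with a log2 ratio of -0.22 (-0.31 to -0.12). Its second start, used by 2 of 3 curated transcripts, did not share that difference: it stood at 23.1 and 24.1 FPM, 0.06 (-0.09 to 0.22). Gabpa (chr16:84834925-84863779, plus strand) was level at 56.5 and 55.0 FPM, -0.04 (-0.14 to 0.06).

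Ets2 (chr16:95702075-95721051, plus strand) stood at 45.4 and 41.3 FPM, -0.13 (-0.25 to -0.02), and Elk3 (chr10:93247414-93311135, minus strand) at 29.1 and 27.8 FPM, -0.07 (-0.21 to 0.07). Ets1 (chr9:32636221-32757820, plus strand) read only 7.61 and 7.11 FPM at its annotated 5′ end. At the start of 5 of its 6 curated transcripts, 59.8 kb further on, it stood at 41.8 and 41.7 FPM, a log2 ratio of -0.00 (-0.12 to 0.11).

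Spib (chr7:44525993-44532071, minus strand) had the least open promoter, with 76 young and 55 aged fragments, 2.19 and 2.10 FPM, and a wide interval of -0.59 to 0.46. Its thinned shares of cells, 0.794% and 0.428%, lay within the range of the T cell genes, below Lck in both libraries. Lck was the highest of those 5 genes, and in FPM Spib stood above their median of 0.836 and 0.573. The Spib promoter was thus not resolved from the upper part of that range. In young HSCs the order of the annotated promoters was Etv6, Elf1, Gabpa, Ets2, Spi1, Elk3, Ets1 and Spib, with Spi1 placed by its window over the URE, and only Etv6 and Elf1 had overlapping intervals. In aged HSCs Gabpa and Elf1 changed places with overlapping intervals, and the order was otherwise the same.

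**Figure D2:**
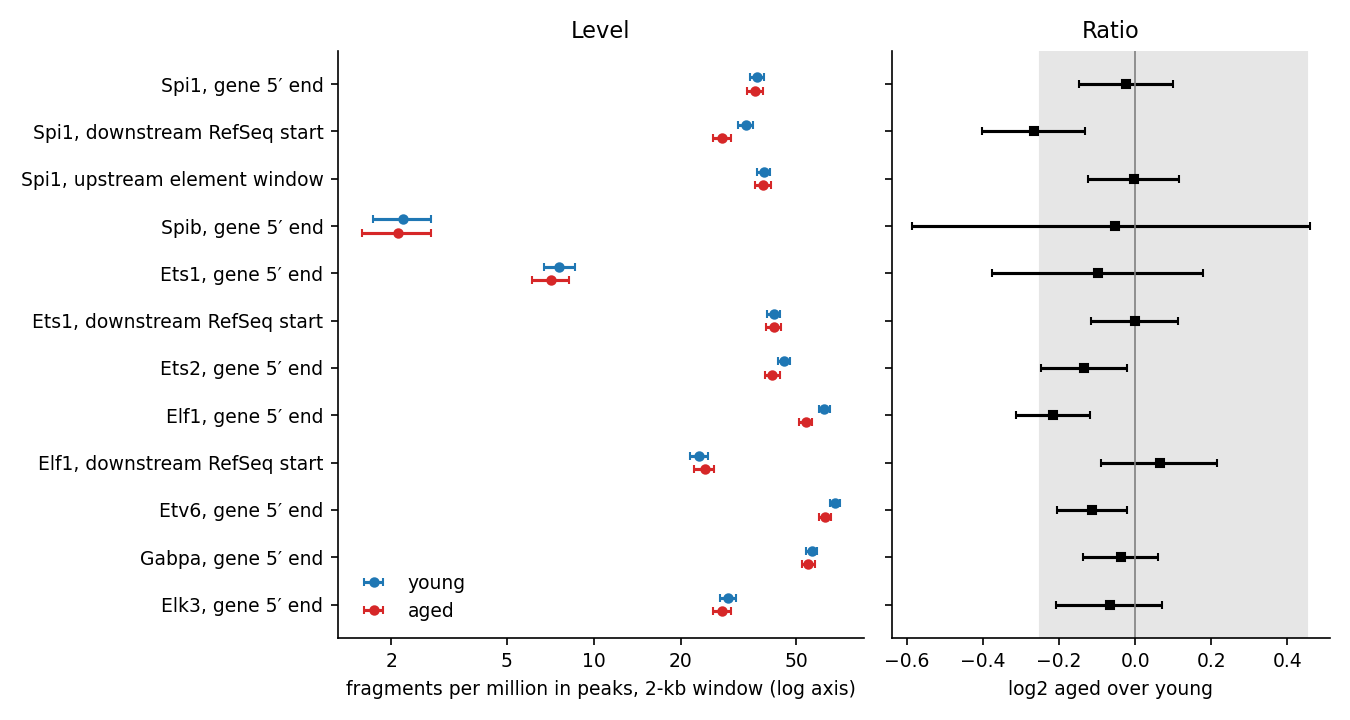
Left, FPM (log axis) at the annotated 5′ ends of the 8 genes, the downstream RefSeq starts of Spi1, Ets1 and Elf1, and the Spi1 URE window, in young (blue) and aged (red) HSCs with 95% counting intervals. Right, the log2 ratio of aged over young with its interval; grey, the 5th to 95th percentile of all tested promoters at annotated 5′ ends, -0.25 to 0.45. The downstream Spi1 start at -0.27 is the lowest ratio drawn, while its URE window and the downstream Ets1 start sit at 0.

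Gene bodies, counted without the promoter window and given per kb, also held no call among the 8, beside 10.1% higher and 3.89% lower of 16594 bodies tested. Spib was the densest, with 8.40 FPM per kb in young and 7.65 in aged HSCs, a log2 ratio of -0.13 (-0.25 to -0.02). The ratio was -0.07 (-0.26 to 0.11) in thinned cells and -0.08 (-0.23 to 0.06) for short fragments. Its short body was thus cut more per kb than that of any other member, beside the least open promoter of the 8. Spi1 followed with 2.93 and 2.79 FPM per kb (-0.07, -0.15 to 0.01), where the body of the longer gene model holds the downstream start. The Spi1 body read -0.20 (-0.31 to -0.09) for short fragments and 0.03 (-0.09 to 0.15) in thinned cells.

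Etv6 (2.74 and 2.76 FPM per kb), Elf1 (2.59 and 2.57) and Elk3 (2.45 and 2.36) had log2 ratios between -0.05 and 0.01. The Ets1 body was higher in aged HSCs, 1.57 and 1.70 FPM per kb, with a log2 ratio of 0.11 (0.06 to 0.16). In thinned cells it was 0.08 (-0.00 to 0.17). Ets2 stood at 0.736 and 0.733 FPM per kb. The Gabpa body was the least open, 0.470 and 0.558 FPM per kb, and its log2 ratio of 0.25 (0.05 to 0.44) rests on 454 and 407 fragments. It was 0.01 (-0.08 to 0.10) with the promoter and 2 kb upstream kept in, and its interval held 0 in thinned cells (0.21, -0.12 to 0.53) and for short fragments (0.17, -0.16 to 0.50).

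**Figure D3:**
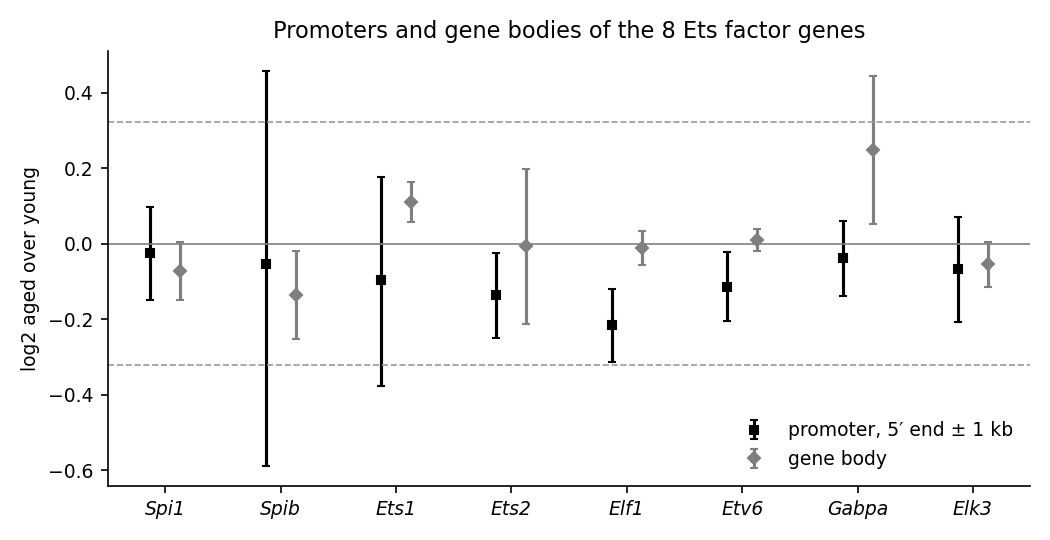
Log2 ratio of aged over young at the promoter (black squares) and gene body (grey diamonds) of each gene, with 95% counting intervals; dashed lines mark the log2 ratio of 0.32 either way that a call needs. No point lies past the dashed lines; all 8 promoters lie below 0, that of Spi1 taken over the URE, and the Gabpa body at 0.25 and the Ets1 body at 0.11 lie above it.

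Larger ratios stood among windows away from the starts, which were more numerous and mostly held fewer fragments than the promoter windows. The extremes of the 2 kinds of window are thus not on a par. The flanks of 50 kb before and after each gene were cut into 500-bp bins, 1600 in all, of which 212 had at least 50 fragments. A bin was called where its ratio passed 1.5-fold and its interval left out a ratio of 1, and by this rule 18 bins were higher and 6 lower in aged HSCs, 8.49% and 2.83%, beside 6.92% and 3.78% of the 513602 tested bins around all genes. In number the bins of these 8 genes were thus near the background, and they were spread unevenly: Gabpa had 6 higher bins, Spi1 5, Spib 2 higher and 4 lower, Ets1 2 higher and 1 lower, Ets2 2 higher, Etv6 1 higher, Elk3 1 lower and Elf1 none. The Spi1 bins centred 2.75 and 13.25 kb upstream, at 0.587 and 0.590, only just passed the log2 limit of 0.585. They fall under it with each of the other scalings tried, which shift every log2 ratio by -0.033 to -0.0055.

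Among the tested flank bins, those of Ets1 held the highest ratio of all 8 genes. The bin 31.5 to 32 kb past the 3′ end held 20 young and 102 aged fragments, a log2 ratio of 2.70 (2.06 to 3.53). The peak under it, 31.7 kb past the 3′ end (chr9:32789281-32789750), stood at 0.606 and 3.90 FPM, a log2 ratio of 2.63 (2.0 to 3.44). Its aged fragments came from 89 cells, with at most 3 in 1 cell, and its young fragments from 20 cells.

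A second Ets1 peak, 40.7 kb upstream of the 5′ end (chr9:32595301-32595750), stood at 0.577 and 3.44 FPM, a log2 ratio of 2.52 (1.87 to 3.35), from 20 young and 84 aged cells. With 20 young and 90 aged fragments, it too reached the minimum of 100 only through the aged library. Both sequences are printed above, and neither overlaps an annotated exon. Smaller gains stood 22.9 kb upstream (0.64, 0.13 to 1.16) and 40 kb into the gene (0.82, 0.28 to 1.39), the latter 0.22 (-0.51 to 0.92) for short fragments. The lowest Ets1 bin, 20 to 20.5 kb upstream in an intron of Gm47680, went the other way with 55 and 17 fragments, -1.23 (-2.17 to -0.48).

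The 6 higher Gabpa bins all lay upstream, across the neighbouring gene Jam2, which encodes a junctional adhesion molecule. All flank fragments of Gabpa together came to 98.8 and 131 FPM, a log2 ratio of 0.40 (0.33 to 0.47), the highest ratio of a flank sum among the 8 genes. The peak 24.5 kb upstream (chr16:84810251-84810640) stood at 2.42 and 6.65 FPM, 1.45 (1.07 to 1.85), from 79 young and 167 aged cells. It carries the PU.1/SpiB letters shown above, and its central 200 bases are 78.0% repeat-masked. The peak 39.7 kb upstream (chr16:84794861-84795590) stood at 1.27 and 3.32 FPM, 1.37 (0.85 to 1.95). The lowest Gabpa bin, 15.5 to 16 kb past the 3′ end, was not called (-0.19, -0.51 to 0.11).

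Around Spib, whose upstream flank runs into Pold1, a gene for a DNA polymerase subunit, the difference was downward. The bin 2 to 2.5 kb upstream, over a Pold1 exon, held 84 young and 25 aged fragments, -1.30 (-2.05 to -0.68), and the peak there stood at 2.60 and 0.917 FPM, -1.46 (-2.22 to -0.84). A second Spib peak 15.2 kb upstream in a Pold1 intron stood at 102 and 49 fragments, -0.64 (-1.17 to -0.15). The highest Spib bin, 18.5 to 19 kb upstream in an exon of Nr1h2, stood higher by 0.90 (0.30 to 1.52).

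The remaining flanks moved less. The highest Spi1 bin, 16 to 16.5 kb before the annotated 5′ end in Psmc3, held 43 and 61 fragments (0.90, 0.32 to 1.51), and the lowest, 21 to 21.5 kb past the 3′ end, was not called (-0.33, -0.79 to 0.11). The highest Etv6 bin adjoined the 3′ end with 26 and 37 fragments (0.90, 0.15 to 1.70), and the highest Ets2 bin lay 49 to 49.5 kb past the 3′ end (0.72, 0.16 to 1.30). Their lowest bins, 6.5 to 7 kb past the Etv6 3′ end (-0.75, -1.75 to 0.08) and 45 to 45.5 kb upstream of Ets2 (-0.70, -1.60 to 0.08), were not called.

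For Elk3 the called bin was the lowest, 0.5 to 1 kb past the 3′ end in an intron of Cdk17, at 8.68 and 5.62 FPM, -0.62 (-0.92 to -0.34). The highest Elk3 bin (0.52, -0.00 to 1.04) and both extreme Elf1 bins (0.45, -0.09 to 1.0, and -0.63, -1.60 to 0.19) were not called.

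**Figure D4:**
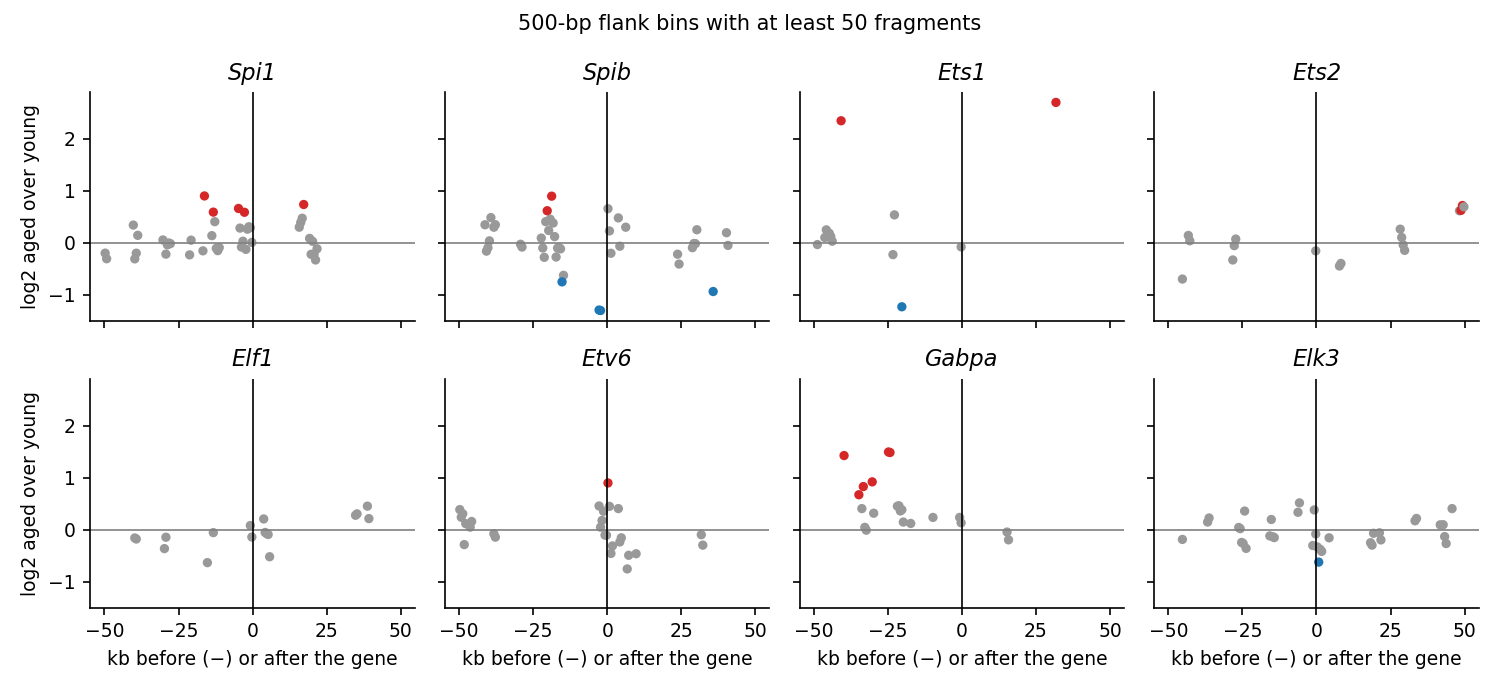
Log2 ratio of aged over young in 500-bp bins with at least 50 fragments, against distance in kb before (negative) and after each gene, 1 panel a gene. Red, called higher; blue, called lower; grey, not called. Ets1 has 2 isolated bins above 2, Gabpa has 6 red bins that all lie upstream, and Elf1 has no called bin.

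Across genes and flanks the 8 loci held 255 combined peaks, of which 177 had at least 100 fragments. By the same rule as for bins, 12 were called higher and 4 lower in aged HSCs, 6.78% and 2.26%, beside 9.63% and 3.99% of 97297 tested peaks in the genome, near the background. Of the 12 higher peaks 1 was still called in thinned cells, where 11 had under 100 fragments, and 2 for short fragments, where 9 had under 100. Whatever their count, all 12 were past the fold in thinned cells but only 8 for short fragments. Of the 4 lower ones 0 and 1 were still called, and 3 and 4 were past the fold. All 16 kept their direction in both settings, some with intervals that then held 0. Both settings are subsets of the fragments that gave the calls, so a kept direction is no separate evidence. Ets1 and Etv6 had 4 higher peaks each, Gabpa 2, Elf1 and Elk3 1 each, and Spi1 and Ets2 none. The lower ones were 2 at Spib and 1 each at Elf1 and Etv6.

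Inside Etv6, the peak 122.8 kb into the gene (chr6:134158221-134158830) stood at 3.52 and 7.64 FPM, a log2 ratio of 1.11 (0.79 to 1.46), from 116 young and 188 aged cells. It was the best covered of the called peaks of Etv6, and its AP-1 and CEBP letters are in capitals above. The other Etv6 gains were below it, from 0.59 to 0.65, and an intronic peak 69.1 kb into the gene was lower (-0.67, -1.28 to -0.11). The gains 141.8 and 176.5 kb into the gene, 0.5853 and 0.5898, only just passed the limit of 0.5850 and fall under it with each other scaling. For short fragments the gains at 5.9 and 141.8 kb were 0.31 and 0.42, with intervals that held 0. The lower peak was -0.41 (-1.41 to 0.46) in thinned cells. In Elf1 an intronic peak 40.8 kb from the 5′ end was lower (-0.82, -1.45 to -0.25), and in Elk3 an intronic peak 51.1 kb from the 5′ end was higher (0.74, 0.29 to 1.2), but for short fragments, 56 and 49, it was not called (0.31, -0.28 to 0.88).

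The central 200 bases of the 12 higher peaks had a median GC content of 46.8%, the 4 lower 55.2%, and the 161 tested peaks that were not called 51.0%. PU.1/SpiB letters stood in 17 of the 255 peaks, 6.67%, beside 6.76% of all peaks. Of the 10 tested peaks with these letters 1, the Gabpa peak, was called. Beside 9.63% higher and 3.99% lower of all tested peaks, this is near the background. Their median log2 ratio was 0.09, beside -0.10 over the 5612 tested peaks of the genome with the same letters.

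**Figure D5:**
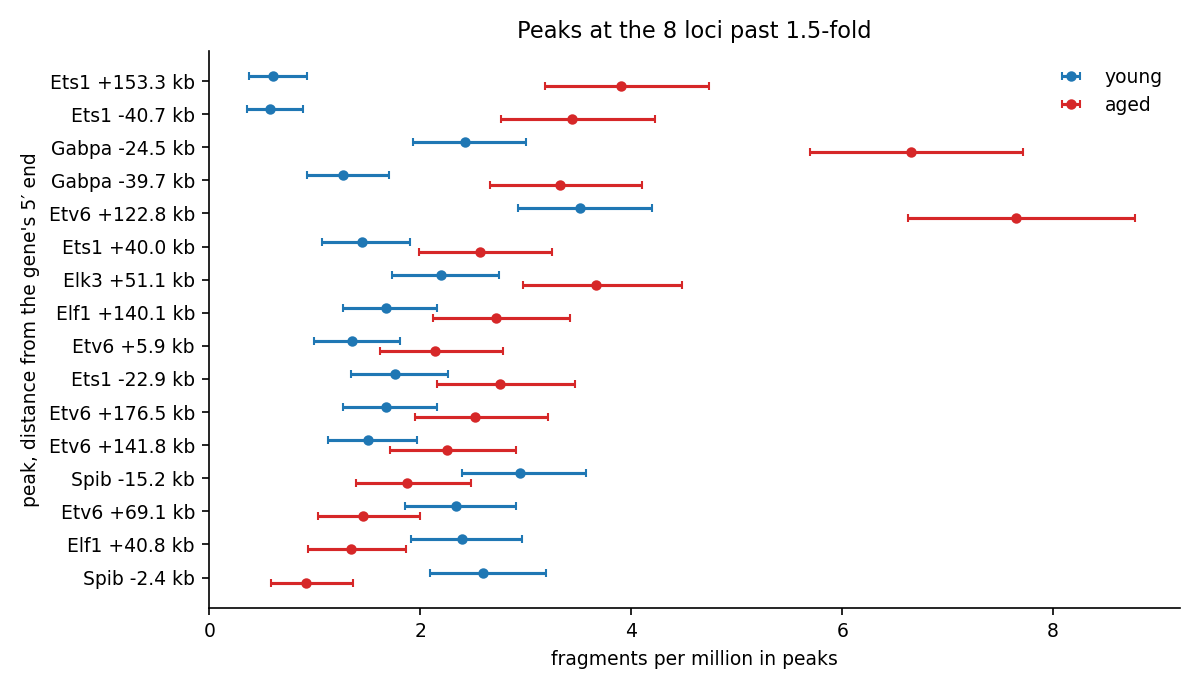
FPM for the 16 called peaks of the 8 loci, in young (blue) and aged (red) HSCs with 95% counting intervals; labels give the gene and the distance in kb from its annotated 5′ end. Both strongest Ets1 gains start from about 0.6 FPM in young HSCs, and the Etv6 peak 122.8 kb into the gene and the Gabpa peak 24.5 kb upstream reach the highest aged levels, 7.64 and 6.65 FPM.

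Of the other 18 Ets family genes, 14 had promoters with enough fragments, and none was called in either direction, beside 7.77% higher and 2.03% lower of all promoters; the median log2 ratio was -0.01, with 7 of 14 below 0. Of their 17 tested gene bodies none was called, beside 10.1% and 3.89% of all bodies, and at these list sizes counts of 0 are near the background. The 13 partners and opponents of PU.1, such as Runx1, Cebpa and Myb, had 12 tested promoters and likewise no call, with a median of -0.03.

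Genes known to be driven by PU.1 were listed as well. The list was chosen with earlier results of these data known, and the background was not matched for level. Its shares are therefore a description and no separate evidence. Of 19 tested promoters of 21 listed genes, 1 was higher and 6 lower, 5.26% and 31.6%, beside 7.77% and 2.03% of all promoters; the median was -0.13. In thinned cells 0 were called higher and 2 lower. The lower ones included Flt3, the receptor whose absence the sort selected for, at 33.8 and 25.5 FPM (-0.41, -0.55 to -0.27). Tyrobp, a signalling adaptor of myeloid receptors, stood at 8.56 and 5.96 FPM (-0.52, -0.81 to -0.24), and the Fc receptor gene Fcgr2b at 6.46 and 4.47 FPM (-0.52, -0.87 to -0.20).

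Lower still were Mpo, the myeloperoxidase of neutrophil granules, at 2.85 and 1.80 FPM (-0.65, -1.2 to -0.15), and Il7r, also a sort marker, at 2.28 and 1.53 FPM (-0.56, -1.16 to -0.01). The neutrophil elastase gene Elane was higher, 1.59 and 2.71 FPM (0.77, 0.25 to 1.31). Mpo, Il7r and Elane all stood below the promoter of the T cell gene Lck, at 5.71 and 4.82 FPM. Lck was the highest of the 5 T cell genes, and each stood above the median of those genes, 0.836 and 0.573 FPM. These calls thus rest on low promoters, within the range of genes that HSCs should not use but above their median. Of 18 tested bodies of the list, 5.56% were higher and 16.7% lower, beside 10.1% and 3.89% of all bodies: Il7r was higher (0.70, 0.22 to 1.2), against its promoter, and Mpo, Flt3 and Cybb were lower, Flt3 with 97.3 and 74.4 FPM (-0.39, -0.47 to -0.30). Mpo and Elane are also granulocyte markers, a list whose summed promoters were the same in both libraries. Of that sum of 19.4 FPM, Prtn3 alone held 12.2 in young and 12.4 in aged HSCs, and Mpo and Elane went in opposite directions. The equal sum therefore does not show that single genes of the list were level.

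Within each library, cells were ranked by the share of their distal in-peak fragments that lay in the 10474 distal peaks with PU.1/SpiB letters, leaving out peaks within 100 kb of the 8 genes. In young HSCs the median share was 5.56% in the lowest and 7.78% in the highest of 5 equal groups of thinned cells, in aged HSCs 5.15% and 7.19%. In aged HSCs the Spi1 start stood at 21.4 FPM in the lowest and 33.6 in the highest group, 42 and 66 fragments, a log2 ratio of 0.64 (0.07 to 1.2). With 3 groups in place of 5, or in unthinned cells, it was 0.28 to 0.47 and the intervals held 0. Over the RefSeq starts of all 8 genes in aged HSCs, 4 ratios were above 0, the median was -0.16, and 1 interval lay above 0 and 1 below. In young HSCs it stood at 29.6 and 31.7 FPM, 0.10 (-0.34 to 0.54). The difference between the ages was not tested and the intervals overlap. The ranking is a range of a score, with 651 young and 425 aged cells within 0.1 points of a limit of the lowest or highest group.

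The URE window had a log2 ratio of highest over lowest group of 0.18 (-0.21 to 0.56) in young and 0.13 (-0.34 to 0.62) in aged HSCs. The Ets1 downstream start went the other way in aged HSCs, 48.9 and 32.6 FPM (-0.58, -1.06 to -0.11). Over whole genes with 2000 bp upstream, 1 of 8 in young HSCs, Etv6, had an interval above 0 (0.19, 0.10 to 0.28), and 1 of 8 in aged HSCs, Ets1, had one below 0 (-0.26, -0.47 to -0.06). Cells were also ranked by the letters of CTCF, which is no Ets factor: 2 of 8 whole genes in each library had an interval below 0, and 1 of 8 starts in aged HSCs had one above 0. By these letters the Spi1 start read -0.53 (-1.10 to 0.01) in aged and 0.17 (-0.24 to 0.59) in young HSCs.

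The 5 genes most like Spi1, by the distance over 4 values, the log2 level per kb of promoter and body in each library, among 20349 genes, were Taf6l, Lasp1, Ptp4a2, Ahdc1 and Fut11. Their promoters stood at 35.1 to 37.8 FPM in young and 34.2 to 36.4 FPM in aged HSCs. With only 1 library an age, this likeness is one of level, and it rests on the annotated 5′ end beside the URE.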

How the data were processed

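Per the submitters' processing notes the tools were Cell Ranger ATAC and Signac on mm10. The authors deposited 2 files a library, unique fragments with their read counts and counts by barcode. Each age is 1 library; labels gave the groups. Barcodes called as cells with over 3000 and under 20000 in-peak fragments were kept. A fragment counted once where an end lay in a window. Peaks were called on the kept cells in windows of 151 bp (Poisson q under 0.001) and combined. Log2 ratios have 1 fragment added, their intervals are exact binomial intervals of the aged share, levels have exact Poisson intervals, and cell shares have Clopper-Pearson intervals. The log2 ratio of the Spi1 start minus that of the URE has no fragment added and an interval by normal approximation. Free DNA and doublets were not removed from the main counts; doublets were marked from loci with 3 or more overlapping fragments. Only the promoter call was tested on simulated counts, drawn with counting error alone. The calls of bins and peaks were not. Genes and exons come from the GENCODE annotation of GRCm38, and curated starts and sequence from RefSeq. TMM factors came from edgeR 4.0.16 in R 4.3.3, and the rest was computed with Python 3.11.15, numpy 2.4.6 and scipy 1.17.1.

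All 8 genes are named; of the lists, the genes past the fold, at most 6 by size; of the flanks, the highest and lowest bin of each gene. The genes, lists and windows were chosen with earlier results of these data known. The URE window was first placed 13 to 15 kb upstream of the annotated gene 5′ end, which misses the URE, since that end lies beside it. The window set from the RefSeq start, the downstream starts and the peak counts were chosen after seeing the data. Values were recomputed with other scalings, cells, depths, fragment lengths, windows and added fragments.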

Additional observations from a re-analysis of the deposited data

How the results depend on the processing

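The summed log2 ratio of the 8 promoters stayed negative under all 13 alternatives, from -0.14 to -0.07, and that of the Spi1 downstream start under all 11, from -0.41 to -0.24, with -0.41 the value for short fragments, those under the length of nucleosomal DNA. Other window widths were not tried at the Spi1 downstream start. The URE window set from the RefSeq start ranged from -0.09 to 0.00 over 12. The window first placed, where no peak was called so that a count over its peaks could not be made, had 113 fragments in each library, a log2 ratio of 0.41 (0.02 to 0.80); it was -0.045 for short fragments and -0.0033 with the window set from the RefSeq start. The summed gene bodies, 0.01, were -0.027 with all nuclear fragments as the total, 0.030 in thinned cells and -0.037 for short fragments. Higher flank bins, 18, were 11 in thinned cells, 7 for short fragments, 54 with no minimum and 5 at 2-fold; lower ones, 6, were 21 with no minimum, 3 with at least 100 fragments, 10 at a log2 limit of 0.32 and 3 at 2-fold. Higher peaks, 12, were 3 in thinned cells and 3 for short fragments, and lower ones, 4, were 1 in thinned cells. Higher PU.1-driven promoters, 1, were 0 in thinned cells and 0 for short fragments, and lower ones, 6, were 2 in thinned cells. Of the 12 higher peaks, 11 had under 100 fragments in thinned cells. For short fragments 9 did, and 8 of the 12 were past the fold. For the other counts the cause was not tested. The share of calls over the genome was not recomputed under these settings, and the number of bins, peaks or promoters tested changes with them. These counts therefore cannot be set against the background. The 18 Ets family promoters with no minimum of fragments held 0 calls. Unthinned shares of cells at the Spi1 start were 20.5% and 18.7%. The ratio of the Spi1 start between the lowest and highest cells by PU.1/SpiB letters kept its sign with 3 groups in place of 5 and in unthinned cells, 0.28 to 0.47 in aged HSCs, with intervals that then held 0, and 0.03 to 0.20 in young HSCs. No paired analysis was possible because each age has a single library.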
